A study of Mus musculus with 4 samples.

Results

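Housing was compared in sorted colonic dendritic cells of mice labelled as CD300a deficient (KO), germ-free (GF) against specific pathogen-free (SPF). The comparison rests on 2 of the series' 4 arrays, the KO GF array and the KO SPF array, with 1 array per group, and the WT GF and WT SPF arrays stand beside them for reference only. CD300a-deficient and wild-type (WT) mice were on the C57BL/6J background, and the colonic lamina propria cells came from 5 mice per condition (no age is given). Dendritic cells were freshly sorted by flow cytometry, with no gate stated. The labels give the SPF mice as female and the GF mice as male, and the SPF pair shared slide 1 and scan 1 while the GF pair shared slide 2 and scan 2. Slide, scan, labelled sex and housing cannot be told apart. Of 19804 autosomal genes that could be named on the array, 15041 were well above background on at least 1 of both KO arrays and are described here.

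Dendritic cells of the colonic lamina propria lie beneath the epithelium, take up antigen, carry it on MHC class II molecules to lymph nodes and set whether T cells respond or tolerate. CD300a is an inhibitory receptor that binds phosphatidylserine exposed on dying cells. Germ-free mice have no microbiota, and gut myeloid cells in conventionally housed mice meet microbial ligands that act through Toll-like receptors.

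A level is the log2 signal relative to the 75th percentile of its array, so that 0 is that percentile, and a difference is the GF level minus the SPF level on this log2 scale. With 1 array per group no difference has a replicate check, no test was run, and the values measure these 2 arrays. Technical precision can be read from the arrays themselves. Spots of the same probe had a median SD of 0.10 (KO SPF) and 0.09 (KO GF), the scanner's own error of a difference had a median of 0.21, and different probes of the same gene disagreed with an SD of 0.65 over 3184 genes. For a named gene above background on only 1 array, a bound ("at least N-fold") is given instead of the difference. The bound sets the bright value against the lowest signal that counted as above background on the dim array. Where the dim probe's own value is higher, that value is used. The bound holds for this processing only, and some differences were smaller than their bound with another background correction. The 2-fold counts, list medians and figures use the plain difference of every measured gene, dim on 1 array or not, unless a bound is stated. Among 850 genes called 2-fold different that had a further probe above background, this probe had the same direction for 84.7% and was itself 2-fold different for 49.4%.

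The labels were checked first. Cd300a, read by 1 probe, stood at 7.91 on the KO SPF array, 8.05 on the KO GF array, 7.88 on the WT SPF array and 7.60 on the WT GF array, so it was not lower on the arrays labelled KO. No source used here places the probe inside or outside the deleted part, so it does not check the genotype. Xist, expressed from the inactive X chromosome of females, read 5.45 on the KO SPF array and 3.62 on the KO GF array, although the label there is male, and it did not exceed background in WT cells under GF housing. The Y-linked genes Ddx3y, Uty and Kdm5d were above background on the GF arrays and not on the SPF arrays, whereas Eif2s3y was above it on the KO SPF array too, at -2.56. "KO" below means the array so labelled.

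Signal on the KO GF array exceeded that on the KO SPF array by 2-fold or more for 3246 genes (21.6% of 15041). It fell short of it by 2-fold or more for 2328 (15.5%). Counts for the gene lists below are to be read against these shares. The difference had a median of 0.05 over all genes, with the middle 50% between -0.64 and 0.84. Of the measured genes 1700 were above background on the GF array only and 489 on the SPF array only. Among the 12852 genes above background on both arrays the order turned, with 1820 higher and 1955 lower. Bright genes lay lower: with these genes ordered by mean level and cut into 4 equal groups, the median differences from dim to bright were 0.24, 0.04, -0.13 and -0.32. The share of higher among all genes called was 58.2%. This share was 75.2% with the deposited value table, which moved the median of all genes to 0.39, 36.6% among the 7521 brighter genes, 48.2% among genes above background on both arrays and 47.1% among those above it on all 4.

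**Figure D1:**
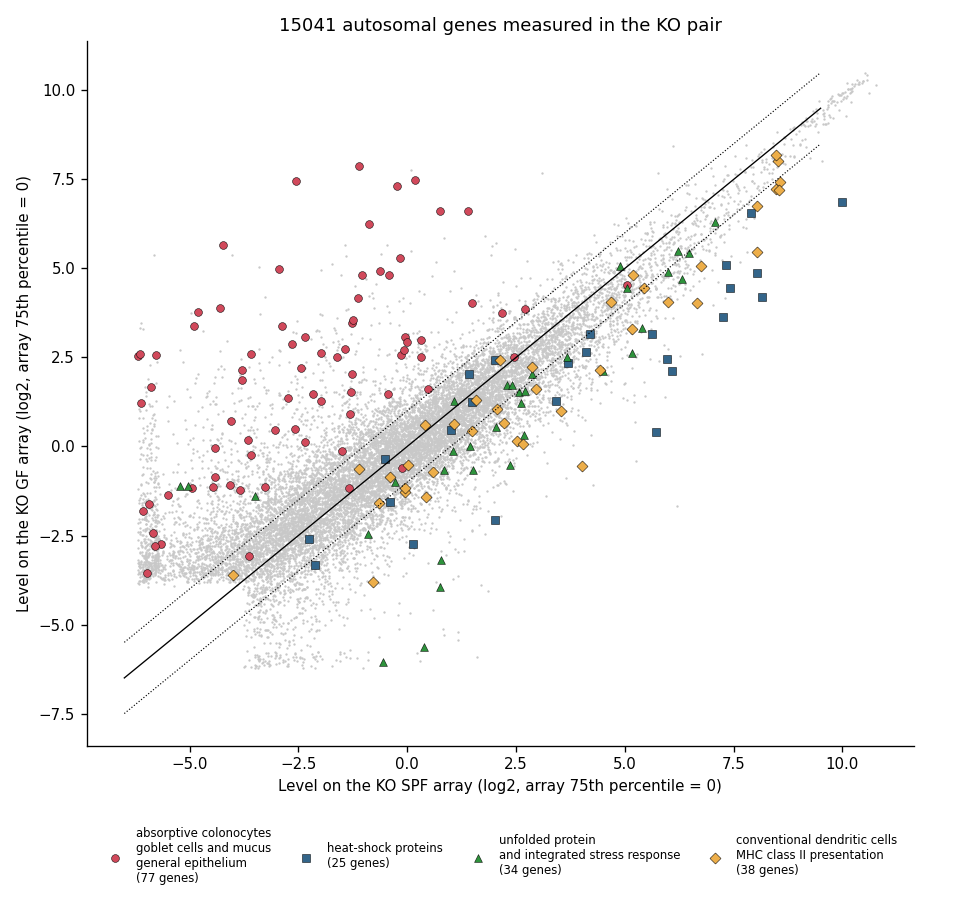
Levels of the 15041 measured autosomal genes on the KO SPF array (x) and the KO GF array (y), log2 relative to each array's 75th percentile; the solid line marks equal levels and the dotted lines a 2-fold difference. Epithelial genes (red) lie mostly above the line, heat-shock genes (blue) mostly below it, and 1700 genes along the left were above background on the GF array only.

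The genes furthest higher on the GF array were genes of the colonic epithelium. Car1, a carbonic anhydrase of colonocytes, read -2.55 on the SPF array and 7.44 on the GF array, the widest gap between levels in these 12 genes. Guca2a, which encodes the secreted peptide guanylin, went from -1.12 (SPF) to 7.88 (GF), and Fabp2, the intestinal fatty acid-binding protein, from -0.24 to 7.31. Each of these 3 genes was bright on the GF array and near or below the 75th percentile on the SPF array. The brush-border protocadherin Cdhr5 differed by 7.91, the cytochrome P450 Cyp2c55 by 8.46, and the carboxylesterases Ces2b and Ces2c by 7.47 and 7.12; Ces2 genes are close copies and probes may share signal. Aldh1a1, a retinaldehyde dehydrogenase, differed by 6.92 and the butyrophilin-like pseudogene Btnl5-ps by 7.07, for which a further probe gave 1.49. The WT pair had the same direction for all 12 genes at the top of this order, with differences between 4.70 (Aldh1a1) and 9.03 (Lypd8).

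Several epithelial genes were above background on the KO GF array only. Krt20, a keratin of differentiated colonocytes, read 5.67 there and was at least 739-fold higher than on the KO SPF array. The water channel gene Aqp8 read 3.77 and was at least 198-fold higher, Phgr1 at least 214-fold and the transcription factor gene Tfcp2l1 at least 194-fold. For Spink1, which encodes a trypsin inhibitor, the bound was 609-fold, and for Saa2, an acute-phase serum amyloid gene, 606-fold.

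By cell type list, absorptive colonocyte genes were the furthest apart. Of 28 measured members 26 were at least 2-fold higher and 0 lower on the GF array, with a median difference of 5.04, and 13 of them were above background there only. The phosphate transporter gene Slc20a1 and the aminopeptidase gene Anpep were the 2 members not higher, at -0.50 and -0.49. With dim genes at their bound the absorptive colonocyte median was 4.83. Goblet cell and mucus genes had 16 of 17 higher and a median of 3.78, or 2.73 with dim genes at their bound. Zg16, a mucus lectin, read 0.17 (SPF) and 7.48 (GF), Fcgbp, a mucus protein, -0.89 and 6.24, and Muc2, the main gel-forming mucin of the colon, -1.26 and 3.46. The trefoil peptide gene Tff3 went from -2.87 to 3.38, whereas Retnlb, a goblet cell product, differed by only 0.18.

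General epithelial genes were higher in 30 of 32 members, with a median of 3.89, or 3.42 with dim genes at their bound. Epcam, the epithelial adhesion molecule, read -0.42 and 4.82 on the SPF and GF arrays, Krt8 -2.35 and 3.07, and Hnf4a, a transcription factor of enterocytes, -3.79 and 2.16. Cdh17 was at least 46.2-fold and Cdh1 (E-cadherin) at least 14.0-fold higher. Lgr5, the stem cell receptor, was above background on the GF array only, with a bound of just 1.46-fold, and the claudin gene Cldn15 differed by 0.04.

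Enteroendocrine genes were higher in 13 and lower in 1 of 20, with a median of 2.03, or 1.42 with dim genes at their bound. Somatostatin (Sst) was at least 11.6-fold and secretin (Sct) at least 18.5-fold higher, the granule protein gene Chga went from -1.55 to 0.87, and the peptide hormone gene Cck was lower, -1.52 against -3.30. Tuft cell genes had a median of 0.02, with 4 higher and 4 lower of 13, and this median was below 0 with quantile scaling, cyclic loess, normexp correction and centring on genes of like level. Tuft cell genes thus did not share the shift of the colonocyte list.

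These lists mark cells other than the sorted population. The log2 of the summed scaled signal of the absorptive colonocyte list was 5.64 on the KO SPF array, 9.67 on the KO GF array, 5.72 on the WT SPF array and 9.19 on the WT GF array. For goblet cell genes the sums were 3.48, 8.78, 3.60 and 7.86 in the same order, so both GF arrays stand above both SPF arrays. On the KO arrays epithelial signal differed alongside the other lists described below, and its part in those differences was not tested. General epithelial genes had median differences of 3.89 in the KO pair and 3.73 in the WT pair. In the same order maturation genes had -1.10 and 0.08, ribosomal protein genes -0.87 and 0.06, and conventional dendritic cell genes -1.20 and -0.12. Xenobiotic metabolism genes had 2.09 and 2.02, and heat-shock genes -2.13 and -0.81. In bulk RNA, fewer cells of a type and less RNA per cell cannot be told apart.

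**Figure D2:**
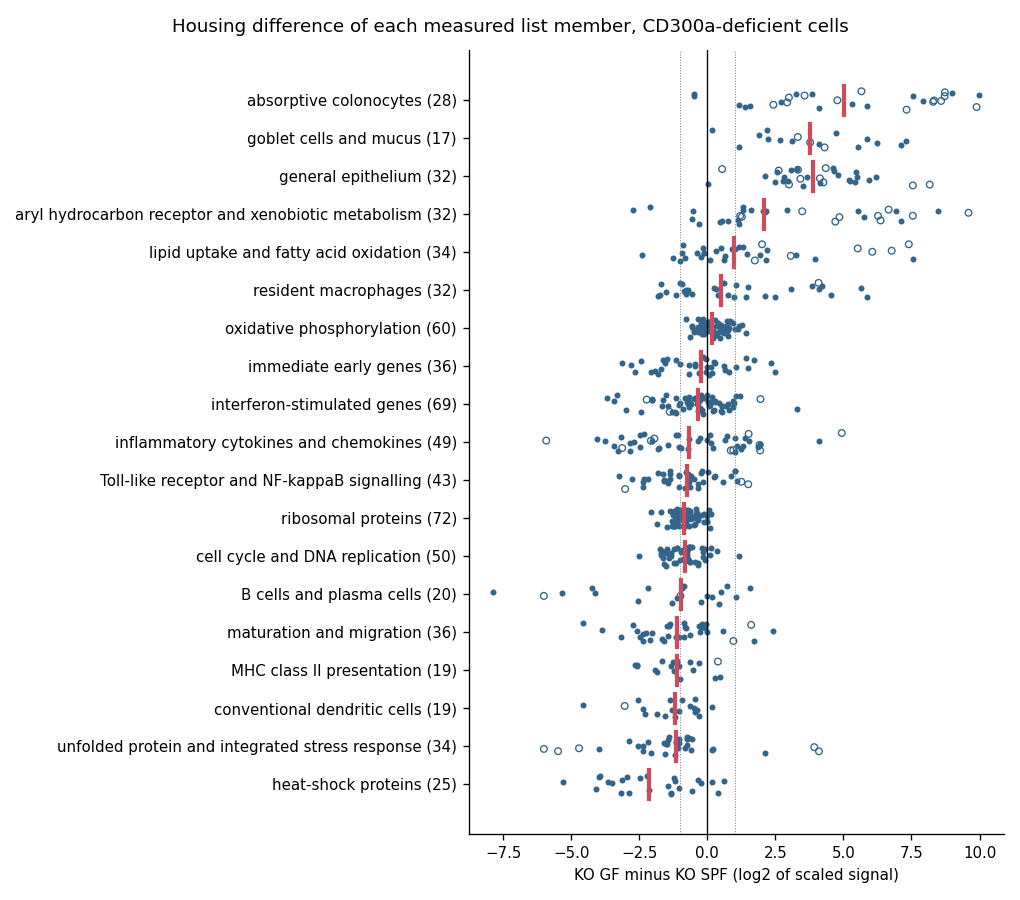
Difference KO GF minus KO SPF (x, log2) of each measured member of 19 gene lists, with the number of measured members in brackets; filled points were above background on both arrays, open points on 1 array, red bars are list medians and dotted lines mark 2-fold. Colonocyte, goblet and general epithelial genes lie mostly right of 0, with medians of 5.04, 3.78 and 3.89, and heat-shock genes mostly left of it, with a median of -2.13.

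Antimicrobial genes split. Of 22 members 12 were higher and 2 lower on the GF array. The median was 1.82, or 1.61 with dim genes at their bound. Lypd8, which encodes a protein of the colonic surface that binds flagellated bacteria, read 0.08 (SPF) and 7.77 (GF), and the scavenger glycoprotein gene Dmbt1 -1.72 and 5.12. The C-type lectin genes Reg3b and Reg3g, close copies of each other, were above background on the GF array only, with bounds of 32.1-fold and 16.4-fold. Slpi, a protease inhibitor, went the other way, from 3.66 to -0.89, and S100a9, a subunit of calprotectin in neutrophils and monocytes, was at least 9.81-fold lower. The lysozyme gene Lyz2 of myeloid cells differed by -0.70, about as much as different probes of a gene disagree.

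Xenobiotic metabolism and aryl hydrocarbon receptor genes were higher in 24 of 32 and lower in 2. The median was 2.09, or 1.83 with dim genes at their bound. The cytochrome P450 gene Cyp2c55 read -3.40 and 5.05, Cyp2c65 was at least 162-fold and the sulfotransferase gene Sult1b1 at least 42.3-fold higher. Ahr, the receptor itself, differed by -2.11 and its target Tiparp, a poly-ADP-ribose polymerase that feeds back on the receptor, went from 5.27 to 2.53. Ahrr, the repressor of the receptor, differed by -0.57. Nr1i2, the pregnane X receptor, was above background on the GF array only and at least 13.8-fold higher.

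Lipid uptake and fatty acid oxidation genes were higher in 17 and lower in 3 of 34. The median was 0.97, or 0.79 with dim genes at their bound. Ppargc1a, a transcriptional coactivator of mitochondrial genes, was at least 38.6-fold higher. Dgat1, which makes triglyceride, was lower, 4.41 against 1.99. Cholesterol and fatty acid synthesis genes had a median of -0.18, above 0 with the deposited value table, and 5 higher and 6 lower members of 29. These shares are near those of all genes (21.6% and 15.5%). Within this list the desaturase gene Scd1 was higher (-0.94 and 1.12) and the sterol sensor gene Insig1 lower (a difference of -1.93).

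**Figure D3:**
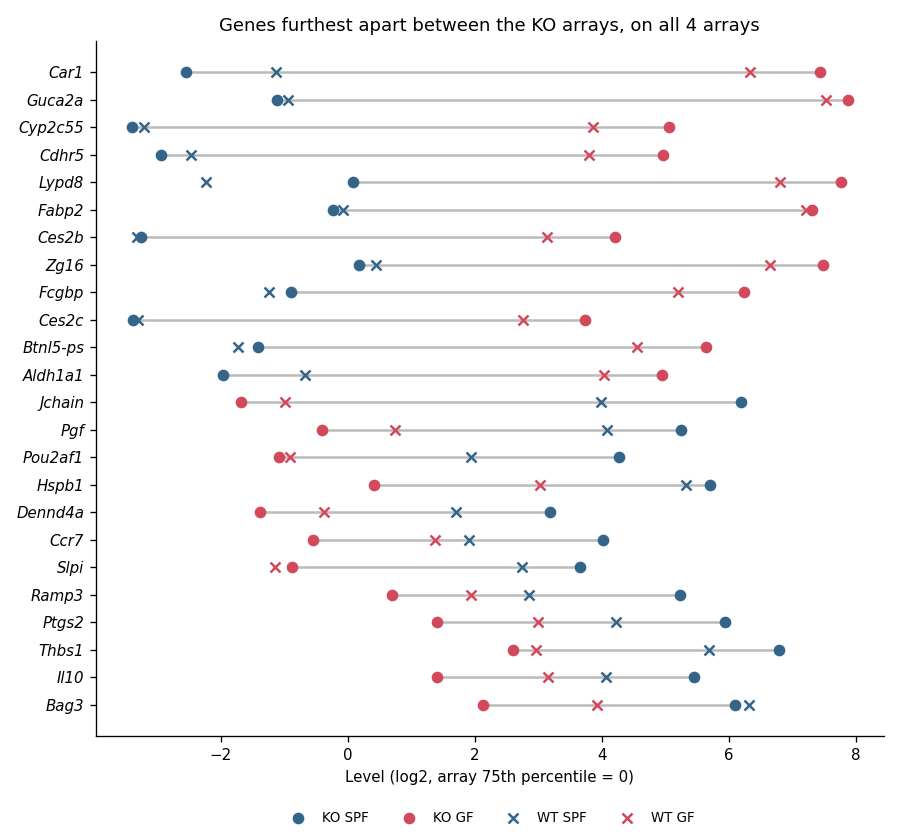
Levels (x, log2 relative to the array's 75th percentile) of the 12 genes furthest higher and the 12 furthest lower on the KO GF array among genes above background on both KO arrays; dots are KO, crosses WT, blue SPF and red GF, and lines join the KO arrays. Car1 runs from -2.55 (KO SPF) to 7.44 (KO GF) and Jchain from 6.20 to -1.68, and the WT crosses of all 24 genes have the same order of housing.

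The genes of dendritic cells, the cell type given in the labels, were lower on the GF array. Of 19 measured genes of conventional dendritic cells 11 were at least 2-fold lower on the GF array and 0 higher, and the median difference was -1.20. Itgax encodes CD11c, an integrin subunit of dendritic cells, and whether the sort used it is not stated. It read 4.44 on the KO SPF array and 2.15 on the KO GF array, beside 4.32 and 3.19 on the WT SPF and WT GF arrays. Flt3, the receptor of the cytokine that sustains these cells, read 0.59 and -0.71, and Zbtb46, a transcription factor of conventional dendritic cells, -0.06 and -1.26. All 3 defining genes were above background on every array, and each was lower on the KO GF array. Of genes that dendritic cells and macrophages both express, Itgam read 8.52 and 8.01 and Sirpa 5.19 and 4.81, and both differences were above 0 with cyclic loess. Spi1, the PU.1 factor of myeloid cells, read 4.55 and 1.78, and Ptprc, the pan-leukocyte CD45 gene, 2.44 and 0.52; these stand in no list and were picked after their values were seen.

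Genes of dendritic cell subsets had medians below 0. Type 1 conventional dendritic cell genes had a median of -0.73 (2 higher and 6 lower of 16). Xcr1, the chemokine receptor that defines them, read -0.78 on the SPF array, was not well above background on the GF array and was at least 8.20-fold lower, while the dead-cell receptor gene Clec9a differed by -0.47 and the transcription factor gene Batf3 by -1.02. Type 2 genes had a median of -0.64 (3 and 8 of 23). Epcam and Klf4 were among the higher members, with differences of 5.24 and 1.49, and Epcam is also a gene of epithelium. Plasmacytoid genes had a median of -0.61 with 4 higher and 3 lower of 17, shares near those of all genes (21.6% and 15.5%), and Siglech, a receptor that marks these cells, differed by 0.26. With the deposited value table, which adds 0.34 to every KO difference, the medians of the type 1, type 2 and plasmacytoid lists were -0.39, -0.30 and -0.27.

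Antigen presentation genes were lower. For MHC class II, 12 of 19 members were at least 2-fold lower and 0 higher, with a median of -1.12. H2-Eb1, a class II beta chain, read 8.05 (SPF) and 5.47 (GF), the alpha chain gene H2-Aa 8.03 and 6.75, and the invariant chain gene Cd74 8.56 and 7.44. H2-DMb1, of the complex that loads peptide, went from 6.66 to 4.02. Ciita, the transactivator that switches class II genes on, did not share this, at 2.14 and 2.42. Class I presentation genes had 11 lower and 1 higher of 26 and a median of -0.89; the immunoproteasome subunit Psmb8 read 4.81 and 3.10, and the only member higher was H2-Q1 (-3.10 and 2.53), of a family of near-identical copies. With quantile scaling the medians were closer to 0, at -0.68 for class II and -0.39 for class I. The WT pair had list medians of -0.12 for conventional dendritic cell genes, -0.27 for class II and -0.32 for class I genes.

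Maturation and migration genes were lower in 19 and higher in 3 of 36, with a median of -1.10. Ccr7, the chemokine receptor for exit to lymph nodes, read 4.01 on the KO SPF array and -0.54 on the KO GF array, beside 1.91 and 1.37 on the WT arrays. The KO SPF value was the highest of these 4 and the KO GF value the lowest. The costimulatory genes Cd40 and Cd86 read 1.53 and 3.92 under SPF and -1.20 and 1.68 under GF housing, and Cd274, which encodes the inhibitory ligand PD-L1, 3.77 and 1.41. Stat4 differed by -3.87 and the signalling adaptor gene Samsn1 by -3.17. Other maturation genes were level: the chemokine gene Ccl17 differed by -0.02 and the actin-bundling fascin gene Fscn1 by -0.23.

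Inflammatory cytokine and chemokine genes were lower in 22 and higher in 14 of 49, with a median of -0.66. Over all genes 15.5% were lower and 21.6% higher. Il10, the anti-inflammatory cytokine of gut myeloid cells, read 5.46 (SPF) and 1.41 (GF), Il6 2.86 and 0.01, and Il1b 7.65 and 5.18. The IL-1 receptor antagonist gene Il1rn went from 5.05 to 1.29. Among chemokines, the neutrophil attractant Cxcl3 was above background on the SPF array only and at least 55.8-fold lower under GF housing, Ccl4 read 7.31 and 4.16, and Cxcl10 3.84 and 0.43. Among the higher members Ccl24, an eosinophil attractant, went from -0.64 to 3.47, and Ccl28, an epithelial chemokine, was at least 7.90-fold higher. In the WT pair Il10 differed by -0.93, Il1b by -0.45 and Il6 by 0.74.

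Signalling genes upstream of these cytokines were lower in 19 and higher in 5 of 43 (median -0.74). Nlrp3, the sensor of an inflammasome, read 5.98 and 2.74, the NF-kappaB subunit gene Nfkb1 3.52 and 0.75, and the inhibitor gene Nfkbia 4.94 and 3.49. Ripk2, the kinase downstream of NOD receptors, was at least 6.04-fold lower. The receptors went both ways: Tlr2 read 2.10 and 0.48, whereas Tlr4, the receptor for lipopolysaccharide, read 0.14 and 1.14 and Tlr5, the receptor for flagellin, -2.51 and -1.51. Related inflammatory genes stood among those furthest lower over all genes. Ptgs2, which encodes the inducible cyclooxygenase, read 5.94 and 1.40, Thbs1, a matrix protein that activates latent TGF-beta, 6.79 and 2.60, and the plasminogen activator inhibitor gene Serpinb2 was at least 34.7-fold lower.

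Ifnb1, the gene of interferon beta, read 1.61 on the KO SPF array, was not well above background on the KO GF array and was at least 47.0-fold lower there. In WT cells it read 0.54 on the SPF array and was not well above background on the GF array either, with a bound of 22.7-fold. The receptor subunit genes Ifnar1 and Ifnar2 were lower, 4.37 and 4.22 under SPF against 1.58 and 2.63 under GF housing. Ifnlr1, the receptor chain for type III interferon found on epithelium, was at least 9.99-fold higher, and the median of the 14 interferon and receptor genes was 0.46. Interferon-stimulated genes were lower in 20 and higher in 4 of 69, with a median of -0.34. Isg15, a ubiquitin-like modifier, read 3.66 and 0.66, and Oasl1 2.44 and -1.24. The interferon-inducible kinase gene Eif2ak2 was higher, 0.57 and 1.60; the share of lower members, 20 of 69, stands against 15.5% of all genes.

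Heat-shock genes were the list furthest lower. Of 25 members 19 were at least 2-fold lower on the KO GF array and 0 higher, with a median of -2.13, and the WT median was -0.81. Hspb1, a small chaperone that holds unfolded proteins, read 5.71 (KO SPF) and 0.41 (KO GF), beside 5.32 and 3.03 in WT cells. Hspa1a, the inducible Hsp70, read 7.26 and 3.63 on the KO arrays, its nucleotide exchange factor gene Hsph1 8.15 and 4.19, and the Hsp70 partner gene Bag3 6.09 and 2.13. The Hsp40 gene Dnaja1 went from 7.42 to 4.45 and the cytosolic Hsp90 gene Hsp90aa1 from 5.62 to 3.16. Hsf1, the factor that switches these genes on, differed by only -0.55, and Cryab and Fkbp4 were the members with the highest differences, 0.61 and 0.39.

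Hspd1 and Hspe1, which encode the mitochondrial chaperonin and its partner, are neighbours on chromosome 1 transcribed away from each other. Hspd1 read 5.98 (KO SPF) and 2.46 (KO GF) and Hspe1 7.32 and 5.10. In WT cells they differed by -2.45 and -0.76, so both genes were lower under GF housing in both genotypes. The 250 bases before their starts nearly coincide on opposite strands. These were the only 2 of 20 heat-shock genes with a promoter entry whose window held the heat-shock element searched. The element is the units GAA, TTC and GAA with 2 free bases between neighbours, on either strand. Of all 25748 genes with a promoter entry, 0.528% carried it in this window. The sequence, shown because 1 shared stretch lies before both genes, is RefSeq's of GRCm38.p6 at chr1:55087933-55088182, on the minus strand, with matches in capitals (overlapping matches run together).

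Hspd1: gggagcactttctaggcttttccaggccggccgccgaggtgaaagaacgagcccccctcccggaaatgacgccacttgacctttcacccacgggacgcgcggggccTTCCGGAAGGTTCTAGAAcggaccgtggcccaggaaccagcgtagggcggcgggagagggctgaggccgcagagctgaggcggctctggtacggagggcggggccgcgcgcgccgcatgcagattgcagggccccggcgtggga

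Genes of the unfolded protein and integrated stress responses, which refold or degrade proteins in the endoplasmic reticulum and supply amino acids under stress, were lower in 22 and higher in 3 of 34, with a median of -1.16 (WT -0.03). The transcription factor gene Xbp1 read 5.18 (SPF) and 2.64 (GF), Ddit3, which encodes CHOP, 2.03 and 0.56, and Herpud1, of the degradation machinery, 5.39 and 3.32. Of genes driven by amino acid shortage, Trib3, a pseudokinase, read 0.77 and -3.20, the glutathione-degrading enzyme gene Chac1 was at least 26.1-fold lower and the cystine transporter gene Slc7a11 at least 10.5-fold lower. Higher members were Gpt2 (-3.51 and -1.40), Cth (at least 6.72-fold) and Vldlr (at least 6.73-fold), enzymes of amino acid metabolism and a lipoprotein receptor. Atf3 differed by 0.18.

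The endoplasmic reticulum stress element is CCAAT and CCACG with 9 free bases between them, on either strand. It was in the 250 bases before the start of 6 of 30 genes of this list. Of all 25748 genes with a promoter entry, 0.124% carried it there. The 6 genes were Hspa5, Hsp90b1, Pdia6, Dnajc3, Creld2 and Derl3, all encoding chaperones or helpers of the endoplasmic reticulum. Hspa5, the chaperone BiP, read 6.00 and 4.91, Creld2 4.49 and 2.13, and the disulfide isomerase gene Pdia6 3.66 and 2.52 (a further probe gave -0.77). Hsp90b1 differed by -0.74 and Dnajc3 by -0.82, while Derl3 read 0.38 on the SPF array and was at least 20.1-fold lower. All 6 were lower on the KO GF array, 4 of them by 2-fold or more. In WT cells the differences were -0.17 for Hspa5, -0.49 for Creld2, 0.26 for Pdia6, 0.63 for Hsp90b1 and -0.30 for Dnajc3. Derl3 was above background on the SPF array only there too, and at least 4.55-fold lower. The windows of 3 genes, from RefSeq's GRCm38.p6 on the plus strand, are shown because they carry the element before genes with small (Hspa5) and large (Creld2, Derl3) differences, at chr2:34771840-34772089, chr15:88819396-88819645 and chr10:75893148-75893397, with the element in capitals.

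Hspa5: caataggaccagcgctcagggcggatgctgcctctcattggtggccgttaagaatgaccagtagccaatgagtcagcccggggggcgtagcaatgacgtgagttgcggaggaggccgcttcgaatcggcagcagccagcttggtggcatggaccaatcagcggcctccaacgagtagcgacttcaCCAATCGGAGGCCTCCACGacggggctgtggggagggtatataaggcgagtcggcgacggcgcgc
Creld2: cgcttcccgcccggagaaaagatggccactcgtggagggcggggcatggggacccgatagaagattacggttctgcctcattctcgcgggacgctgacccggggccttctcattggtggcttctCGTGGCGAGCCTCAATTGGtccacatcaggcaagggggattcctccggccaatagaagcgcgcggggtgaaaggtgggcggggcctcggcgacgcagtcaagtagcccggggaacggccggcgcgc
Derl3: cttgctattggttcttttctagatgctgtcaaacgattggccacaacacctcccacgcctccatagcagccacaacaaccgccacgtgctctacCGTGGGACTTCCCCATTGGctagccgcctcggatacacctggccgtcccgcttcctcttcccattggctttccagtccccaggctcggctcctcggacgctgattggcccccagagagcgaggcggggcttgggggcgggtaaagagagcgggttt

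A match is a run of letters and not a measured binding site. In the epithelial lists, genes with a promoter entry were searched for the site TTTATNG of CDX factors. It was before 3 of 21 absorptive colonocyte, 1 of 8 goblet cell and 3 of 22 general epithelial genes, against 11.3% of all genes with an entry. CAAAGTCCA, a site of HNF4 factors, was before none of the list genes, against 0.462% of all genes with an entry.

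Plasma cell genes were among the genes furthest lower on the KO GF array. Jchain, which joins IgA and IgM into polymers, read 6.20 on the KO SPF array and -1.68 on the KO GF array (a difference of -7.88), and 3.99 and -0.99 on the WT SPF and WT GF arrays. Pou2af1, a B cell coactivator, read 4.28 and -1.08 in KO cells, Mzb1, a chaperone of plasma cells, 1.79 and -2.45, and the B cell receptor subunit Cd79a 1.16 and -2.96. Of 20 measured B cell and plasma cell genes 9 were lower and 2 higher, with a median of -0.96; Pax5, a factor of B cells that plasma cells shut off, was higher (-2.88 and -1.31). Derl3 and Xbp1 stand in this list as well as among the stress genes. B cells and plasma cells are not the cells named in the labels. Germ-free mice are known to hold few intestinal IgA plasma cells, and whether this had a part in these differences was not tested.

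Lymphocyte genes were mixed, with 11 higher and 10 lower of 28 T cell and innate lymphoid genes. Their median was -0.24, above 0 with the deposited value table. Counts in this paragraph stand beside 21.6% higher and 15.5% lower over all genes. Il7r, a cytokine receptor also found on migrating dendritic cells, went from 4.22 to 0.33 and the T cell receptor subunit Cd3d was at least 2.90-fold lower. Neutrophil and eosinophil genes had a median of -0.39 (5 higher, 10 lower of 21) and monocyte genes -0.44 (4 and 10 of 21). Ccr2, the receptor by which monocytes enter the gut, read 2.30 and -0.21, and the decoy receptor Il1r2 5.79 and 2.40. Mast cell and basophil genes had a median of -0.45 over 7 members, and Hdc, which makes histamine, was at least 27.4-fold lower.

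Resident macrophage genes were found on both sides. Of 32 members 13 were higher and 6 lower on the GF array, with a median of 0.50. Over all genes 21.6% were higher and 15.5% lower, so the share of lower members was near that of all genes. Lyve1, a hyaluronan receptor, read -2.63 (SPF) and 3.23 (GF), the lectin gene Cd209f -2.95 and 2.72, the ficolin gene Fcna -2.58 and 1.98, and the folate receptor gene Folr2 -0.40 and 3.46. These are genes of a macrophage type found along vessels and in deeper layers of the gut wall. The scavenger receptor genes Cd163 and Stab1 were higher too, by 2.10 and 2.49. Of other members of the list, the mannose receptor gene Mrc1 was higher, 2.76 and 3.81, and Mertk and Maf differed by 0.98 and 0.61. The adhesion receptor gene Adgre1 read 5.15 and 4.23, the growth factor receptor gene Csf1r 6.78 and 5.64 (further probes gave -1.24 and 0.25), the complement gene C1qa 6.25 and 5.23, and Trem2 5.96 and 4.22. In WT cells Lyve1 differed by 5.74, Folr2 by 4.26, Csf1r by -0.26 and C1qa by -0.27, and the list median was 1.07.

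**Figure D4:**
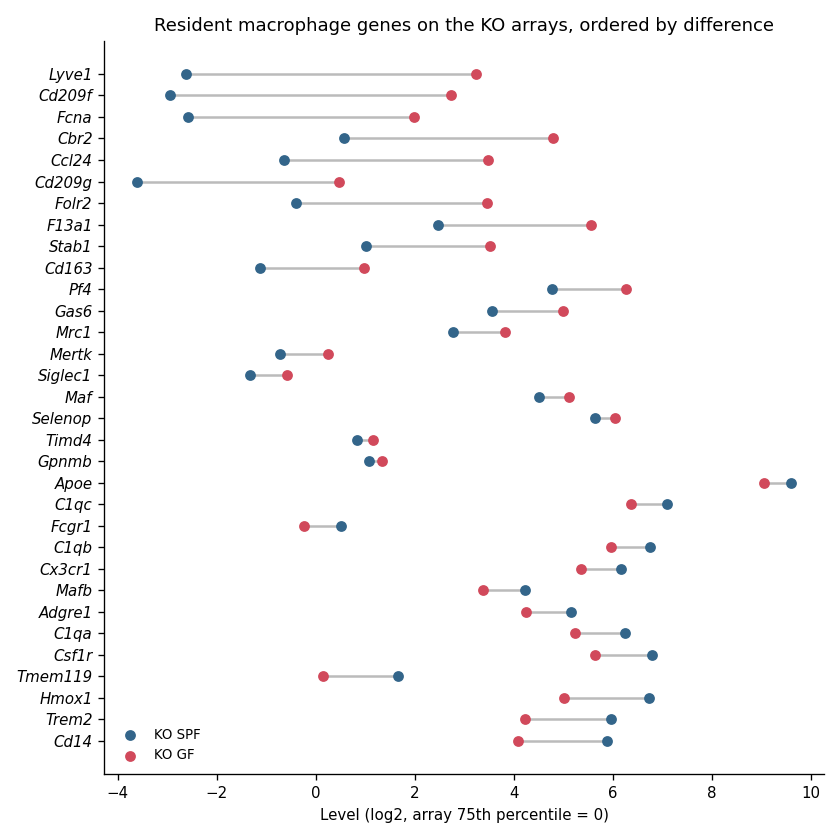
Levels (x, log2 relative to the array's 75th percentile) of the 32 measured resident macrophage genes on the KO SPF (blue) and KO GF (red) arrays, ordered by difference. Lyve1, at the top, runs from -2.63 to 3.23, and Cd14, at the bottom, from 5.87 to 4.08; Cd209g was above background on the GF array only.

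C-type lectin and scavenger receptor genes also went both ways. Cd5l, a scavenger protein of tissue macrophages, was at least 73.7-fold higher, and Clec4e (Mincle), a receptor for mycobacterial glycolipid that inflammatory signals induce, went from 1.68 to -3.89. With 13 higher and 8 lower of 30 the median was -0.06, and it was above 0 with quantile scaling, cyclic loess and the deposited value table. Complement genes had a median of 0.10, with 8 higher and 2 lower of 22, beside 21.6% and 15.5% of all genes. C2 was higher (-3.22 and -0.02) and C1qb lower by less than 2-fold (6.75 and 5.96). In the family of CD300a itself, Cd300ld read 1.22 and -2.07, Cd300lb 1.25 and -0.48, and Cd300lf 1.93 and 0.34. The phosphatidylserine bridging protein gene Gas6 was higher, 3.55 and 4.99, and the 27 genes of this list had a median of -0.27, above 0 with quantile scaling, cyclic loess and the deposited value table.

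Genes of other cell types of the gut wall are read against 21.6% higher and 15.5% lower over all genes. Fibroblast and smooth muscle genes had 13 higher and 3 lower of 37 and a median of 0.48; the collagen gene Col1a1 read -1.08 and 0.76, and Myh11, the myosin of smooth muscle, 0.31 and -0.78. Endothelial genes were higher in 4 and lower in 2 of 25, with a median of 0.36. Enteric glia and neuron genes were higher in 11 of 15 and lower in 0. The median was 1.71, or 1.19 with dim genes at their bound. The glial genes Sox10 and S100b were higher by 2.38 and by at least 8.87-fold. Red blood cell and platelet genes had 8 higher of 10; Hba-a1, an alpha globin that shares its sequence with Hba-a2, read -0.05 and 2.33. The part of these cells in the housing differences was not tested.

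Ribosomal protein genes were lower in 28 and higher in 0 of 72, with a median of -0.87 in KO and 0.06 in WT cells. Rpsa read 6.56 and 4.50, Rps19 4.10 and 2.27, and Rps29 was level at 8.09 and 8.22. These are bright probes, and the list median was -0.49 with differences centred on genes of like level and -0.31 with quantile scaling. Cell cycle and DNA replication genes were lower in 20 and higher in 1 of 50 (median -0.81). The proliferation marker Mki67 read 4.50 and 2.80, the centromere histone gene Cenpa 2.41 and -0.09, and the mitotic gene Birc5 4.15 and 2.40. By contrast, oxidative phosphorylation genes had a median of 0.18, with 5 higher and 0 lower of 60. This list median was 0.57 with quantile scaling and 0.55 with cyclic loess, where all genes had medians of 0.08 and 0.11.

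Glycolysis and hypoxia genes had a median of -0.44, above 0 with quantile scaling, and 7 lower and 3 higher of 35, where 15.5% of all genes were lower. Among the lower members were Vegfa, the vascular growth factor, at 6.27 and 2.53 and the lactate transporter gene Slc16a3 at 2.12 and -0.54. Pgf, the placental growth factor and a relative of Vegfa, was one of the 12 genes furthest lower, 5.25 against -0.40. Immediate early genes, switched on within minutes of a stimulus, moved both ways: Egr1 read 6.11 and 8.44 and Fos 6.01 and 7.05, while Jun read 5.76 and 4.21, Dusp5 1.97 and -1.15 and Nr4a3 2.90 and 0.11. Their median was -0.23 (6 higher and 12 lower of 36, beside 21.6% and 15.5% of all genes). It was above 0 with quantile scaling, cyclic loess, the deposited value table and centring on genes of like level.

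Lysosome and endocytosis genes were lower in 11 and higher in 2 of 33, with a median of -0.52, or -0.11 with quantile scaling and -0.06 with cyclic loess. The proteases Lgmn and Ctss, which cut antigen and invariant chain, read 6.74 and 8.54 under SPF and 5.07 and 7.22 under GF housing, and the protease Ctsd was higher, 4.16 and 5.30. Retinoid handling and tolerance genes had a median of -0.14 and circadian clock genes -0.14, both above 0 with the deposited value table. Aldh1a2, the retinoic acid enzyme of tolerogenic dendritic cells, was level at -0.10 and 0.02, and Nfil3, a clock-linked factor that dendritic cells need, read 5.05 and 2.96. Further single genes far lower on the GF array were Ramp3, a partner of the calcitonin receptor-like receptor (5.24 and 0.69), and Dennd4a, which activates a Rab GTPase (3.18 and -1.39, with -1.95 from a further probe). Nrg1, a growth factor of the EGF family, was at least 28.2-fold lower and the lipoxygenase gene Alox15 at least 27.8-fold. Ostn was at least 34.4-fold lower, but only the KO SPF array had it above background, and the WT SPF array did not.

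The WT pair was on the same slides, so its housing difference shares slide, scan and labelled sex with the KO pair, and no test of a difference between genotypes is possible with 1 array per group. In WT cells 2629 of 15113 measured genes (17.4%) were higher by 2-fold or more under GF housing and 1423 (9.42%) lower by as much, with a median of 0.12. Over the 12473 genes above background on all 4 arrays, 1714 (13.7%) were higher and 1925 (15.4%) lower in KO cells, and 1452 (11.6%) were higher and 855 (6.85%) lower in WT cells. The higher genes shared by both pairs numbered 853, which is 49.8% of the KO list and 58.7% of the WT list. The lower genes shared numbered 543, which is 28.2% of the KO list and 63.5% of the WT list. Of the genes higher in KO cells 10 were at least 2-fold lower in WT cells, and of those lower in KO cells 24 were at least 2-fold higher.

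**Figure D5:**
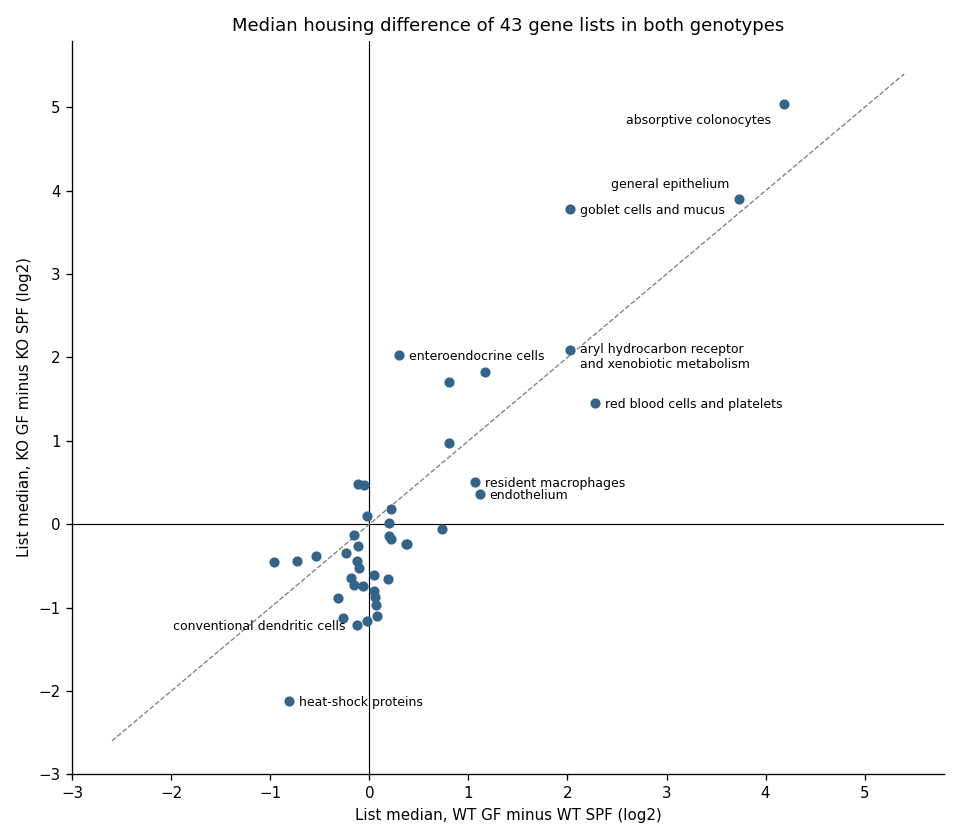
Median housing difference (log2) of 43 gene lists in the WT pair (x) and the KO pair (y); the dashed line marks equal medians. Absorptive colonocyte and general epithelial lists lie furthest up in both pairs, absorptive colonocytes at 4.19 (WT) and 5.04 (KO), goblet cells lie above the line at 2.03 and 3.78, and heat-shock genes lie lowest in KO, at -2.13 against -0.81 in WT.

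Across these genes the KO and WT differences had a Pearson r of 0.723 and a Spearman rho of 0.625, as a description of 12473 genes that share 2 slides and are not independent. Epithelial lists had medians above 0 in both pairs, close for general epithelium (3.89 in KO and 3.73 in WT) and further apart for absorptive colonocytes (5.04 and 4.19), goblet cells (3.78 and 2.03) and enteroendocrine cells (2.03 and 0.30). Xenobiotic metabolism genes had 2.09 and 2.02. Maturation genes had -1.10 and 0.08, cytokine genes -0.66 and 0.19, and ribosomal protein genes -0.87 and 0.06. For single genes, Cd83, a maturation marker, read 5.43 and 4.38 in KO cells and 4.09 and 5.63 in WT cells (SPF, then GF), and Cxcl2, a neutrophil attractant, 6.04 and 4.24 against 4.74 and 5.27. The NF-kappaB feedback gene Tnfaip3 read 6.05 and 4.45 in KO and 5.18 and 5.59 in WT cells. In each of these 3 genes the KO SPF value lay above the WT SPF value, and the KO GF value below the WT GF value.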

How the data were processed

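Total RNA was amplified as cDNA and labelled with Cy3, per the labels' protocols, and hybridised to 1-colour Agilent mouse arrays. The authors deposited, per the file headers, spot intensity values from Agilent Feature Extraction 10.10.1.1, background-subtracted by that software (protocol GE1_1010_Sep10, design build mm9). A deposited value table holds the same signals times 1 factor per array (8.236 for KO SPF, 7.96 for KO GF, 8.3 for WT SPF, 7.082 for WT GF), linear and with no centring; column medians were 216.3, 331.4, 237.2 and 235.7, and the rule for the factors is unknown.

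From the deposited intensity values, log2 minus each array's 75th percentile over non-control probes was computed. Control spots (3671) and flagged spots were left out and spots of a probe averaged, which kept 55597 of 55681 probes. Accessions matched RefSeq (GRCm38.p6) for 27191 probes and no gene for 28406. A gene with several probes was represented by its brightest, by mean over the 4 arrays. Genes of the 19 autosomes above background on at least 1 KO array were kept, and a 2-fold difference was counted. No p-value was computed, since each group has 1 array, and the number of arrays limits the precision.

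Named genes are the 12 furthest higher and lower above background on both arrays, the 6 highest bounds each way, the 3 highest and lowest per list, and genes chosen for their known role; some genes that this rule names are not reported here. The members and the 43 lists were chosen with earlier results of these data known. Alternatives were quantile, cyclic loess and normexp (offset 50, on the median signal, since the files carry no mean signal; limma 3.58.1, R 4.3.3), the value table, filters and probe rules, and, added after seeing the data, centring in 20 bins of level. Counting was tested on simulated data. Python 3.11.15, pandas 2.3.3 and matplotlib 3.10.9 were used.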

Additional observations from a re-analysis of the deposited data

Results flagged for a closer look

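Some lists had medians on opposite sides of 0 in the KO and the WT pair, by at least the disagreement between probes of a gene (0.65); the difference between the pairs was not tested. The medians (KO, then WT) were -0.96 and 0.066 for B cell and plasma cell genes, -0.61 and 0.047 for plasmacytoid dendritic cell genes, -1.104 and 0.080 for maturation and migration genes, and -0.66 and 0.19 for inflammatory cytokines and chemokines. Ribosomal protein genes had -0.87 and 0.057, cell cycle genes -0.81 and 0.047, and C-type lectin and scavenger receptor genes -0.063 and 0.74. Over all genes the WT median was 0.12. The WT medians of the B cell and plasma cell, plasmacytoid, maturation, ribosomal protein and cell cycle lists lay below that value, so these lists were near level in WT cells. With quantile scaling, cyclic loess, normexp correction and the deposited value table, run on the WT pair after seeing the data, the WT plasmacytoid median lay between -0.079 and 0.047, and the WT medians of the other 6 lists kept their direction. The KO median of the C-type lectin and scavenger receptor list was above 0 with quantile scaling, cyclic loess and the deposited value table.

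Of the genes described, 3 moved opposite ways by at least 0.65 in each pair, again untested: Cd83 (-1.05 in KO, 1.54 in WT), Il6 (-2.85 and 0.74) and Nfkbia (-1.45 and 0.87). Outside the autosomal comparison, the label male of the KO GF array stands beside a level of 3.62 for Xist, and the label female of the KO SPF array beside -2.56 for the Y-linked Eif2s3y; both were well above background.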

How the results depend on the processing

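No list with a median beyond 0.5 in size changed direction under any of the 11 alternatives. Of 168 genes named in the text with a difference of 2-fold or more, Csf1r changed direction under an alternative that kept it, to 0.26 with normexp correction, which made another of its 3 probes the brightest; filters on dim genes or levels left out 52 of the 168 in at least 1 alternative. Of 30 named genes with smaller differences 6 changed direction (Ccl17, Fscn1, Itgam, Ms4a4c, Rps29 and Sirpa). The deposited value table moved every KO difference by 0.34 and every WT difference by -0.028. Of the list medians compared 444 moved by less than the disagreement between probes (0.65) and 29 by more, and of the differences of the 36 genes furthest apart 332 and 32. Normexp correction left 1186 genes higher and 1226 lower, and medians of 3.03 for absorptive colonocytes, 2.27 for goblet cells, 0.48 for enteroendocrine cells, 2.54 for general epithelium, 0.83 for antimicrobial proteins, 0.55 for glia and neurons, 0.49 for red blood cells and platelets and 1.17 for xenobiotic metabolism. The deposited value table gave 1466 lower genes and 4455 higher, and brought medians below 0 nearer to it: -0.0042 for interferon-stimulated genes, -0.32 for cytokines and chemokines, -0.40 for Toll-like receptor signalling, -0.47 for cell cycle, -0.10 for monocyte and -0.048 for neutrophil and eosinophil genes. Genes above background on both arrays gave 1820 higher and medians of 3.85 (absorptive colonocytes), 0.89 (enteroendocrine), 0.60 (antimicrobial) and 1.31 (xenobiotic). Genes above it on all 4 arrays gave 1714 higher and 3.69, 0.89, 0.65 and 1.31 for the same lists, with 2.89 for goblet cells and 3.18 for general epithelium. With no filter the antimicrobial median was 1.03. In the 7521 brighter genes 776 were higher and 1347 lower, with medians of 4.64 (general epithelium), -0.79 (tuft cells), 3.59 (antimicrobial), 0.19 (glia and neurons), 2.38 (red blood cells and platelets), -1.21 (interferons and receptors) and 1.23 (xenobiotic). Averaging the probes of a gene moved the monocyte median to -1.11. Centring on genes of like level, an alternative chosen after seeing the data, gave 1.13 for enteroendocrine and 0.91 for glia and neuron genes. Filters change which genes are counted; otherwise the cause was not tested. For a gene not above background on 1 array, signal over background limits the difference to a bound, which holds for the main processing only. With normexp correction Krt20 differed by 6.93, Saa2 by 6.86 and Ifnb1 by -3.17 on the log2 scale. Each of these was smaller in size than the stated bound of the gene. With 1 array per group no replicate could be left out. No paired analysis was possible because each group has 1 array.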

Other observations

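Some probes were bright on all 4 arrays and less than 2-fold different between the KO arrays, among them genes that dendritic cells are not known for. Snap25, a synaptic membrane fusion protein, read 8.09 (KO SPF), 7.20 (KO GF), 7.98 (WT SPF) and 7.26 (WT GF), and Elavl4, a neuronal RNA-binding protein, 7.26, 7.45, 7.20 and 7.25. For Ms4a4c the chosen probe read 10.33 and 10.29 on the KO arrays, while its further probes gave differences of -2.38 and -2.04. The chosen probe of Atf4, the main factor of the integrated stress response, differed by -0.75 and a further one by -2.33. These genes were picked after their values were seen. On the WT SPF and WT GF arrays Ptprc read 2.49 and 1.37, and Spi1 4.54 and 2.84.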
